A study of Mus musculus with 12 samples.

Results

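The members described here are peaks of AGO2-bound RNA that lie in a 3' UTR and hold a match to the seed of the microRNA miR-29. They were taken from chimeric eCLIP of mouse tibialis anterior (TA) muscle, an assay in which Argonaute-2 (AGO2) is cross-linked to the RNA it holds, immunoprecipitated (IP) and sequenced beside an input library. A listed peak was a member when its midpoint fell in an annotated 3' UTR on the same strand and in no coding sequence, and when the peak, extended by 25 nt on each side, held on its own strand the 7-nt word complementary to positions 2 to 8 of mouse miR-29a-3p. No threshold on enrichment was used. Of 713343 peaks in the 4 lists of library over input, 98929 lay in 3' UTRs and 3468 of those were members. The members marked 1415 distinct positions of the word, here called sites, in 1244 genes.

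The 4 lists came from 2 library sets (set 1 and set 2), each with 1 wild-type (WT) and 1 mir-486 KO library, so that n = 2 libraries per genotype. The WT mice carried no engineered allele, the mir-486 KO mice carried a CRISPR deletion in the mir-486 hairpin, all were 6 months old with no treatment labelled, and the methods describe them as male. The strain is labelled C57BL/6 in WT libraries, while mir-486 KO libraries are labelled FVB N/J. The methods describe 1 shared C57BL/6J background after backcrossing, and this was not reconciled. The methods describe several muscles per genotype and work in duplicate, but neither source says how muscles or mice map to the sets, so every p-value and SD below measures the spread between libraries, which may be technical. Libraries further enriched for miR-486 were also labelled and are not analysed here.

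The lists held between 92451 and 256219 peaks, and they give no read counts, so the depth of each library is unknown. Each peak has a log2 fold of its reads in the IP over the input, as computed by the authors, and the −log10 of a p-value. The muscle fiber genes Acta1, Ckm, Myh4, Tnnt3 and Ttn had from 27 to 1464 peaks per list. Genes of fibroblasts and endothelium were listed in all 4 libraries as well, with 7 to 126 peaks each, whereas the macrophage genes Adgre1 and Cd68 had 0 to 6 and Mrc1 had 9 to 54. The libraries are of whole muscle, so fewer cells of a type and less RNA per cell cannot be told apart.

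MicroRNAs guide AGO2 to messenger RNAs, most often in the 3' UTR, through pairing of the seed at their 5' end, and bound transcripts are usually repressed. The miR-29 family is known in muscle and other tissues for restraining collagens and other extracellular matrix genes, and for targeting DNA methyltransferases and TET demethylases. It is also known for targets in insulin-like growth factor signaling. The mouse family has 3 mature microRNAs made from 4 genes, and their RefSeq sequences (GRCm38) are shown because the seed, in capitals, defines the members.
miR-29a-3p: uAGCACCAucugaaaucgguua
miR-29b-3p: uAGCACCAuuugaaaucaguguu
miR-29c-3p: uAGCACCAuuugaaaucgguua
All 3 share the seed, so a site cannot be assigned to 1 of them by the word. Counted from the 5' end, miR-29c differs from miR-29a by C10U, and miR-29b by C10U, G18A, U21G and A22U with 1 more base at its 3' end. The word searched in the peaks was TGGTGCT. The 8-nt match is this word followed by A, the base that lies opposite position 1 of the microRNA.

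All 4 miR-29 genes had peaks of their own in all 4 libraries. At Mir29a (chr6:31062660-31062747, minus strand) the single peak had a log2 fold over input of 8.40 in WT and 7.45 in mir-486 KO in set 1, and 10.3 in both libraries of set 2. At Mir29c (chr1:195037547-195037634, plus strand) the highest peak reached 8.85, 7.85, 7.61 and 8.08 in the same order. Mir29b-1 was the lowest of the 4 genes, with highest peaks from 3.75 to 5.64. Sequence of the miR-29 hairpins was thus enriched over input in both genotypes.

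To show what the members look like, 13 sites with high or group-defining values are printed with their flanks, 5' to 3' on the gene's strand, with the seed word in capitals (GRCm38). All lie in annotated 3' UTRs.
Zfp36, chr7:28377052-28377081, minus strand: cgaagcctctcctgagaatccTGGTGCTca
Zfp36, chr7:28377407-28377436, minus strand: agatgcaataacccatttcccTGGTGCTgg
Tet3, chr6:83364335-83364364, minus strand: gaattgaaatagtctaataaaTGGTGCTat
Dnmt3a, chr12:3908978-3909007, plus strand: aaaaaaacatacaaaatgtacTGGTGCTtt
Kdm6b, chr11:69399036-69399065, minus strand: gcggctccagccgggctctcaTGGTGCTca
Cecr2, chr6:120766736-120766765, plus strand: agggtacatgtaaggctggagTGGTGCTtt
Mcl1, chr3:95661838-95661867, plus strand: agcaggctagagtcttaaccaTGGTGCTat
Dgcr2, chr16:17840799-17840828, minus strand: agagggtgacctaaagtggacTGGTGCTac
Col6a3, chr1:90767410-90767439, minus strand: tctgcacgtgacctgtcaataTGGTGCTaa
Col3a1, chr1:45348961-45348990, plus strand: tccaacttcaaaatgtctcaaTGGTGCTat
Col1a1, chr11:94952517-94952546, plus strand: ggtggggtgggaaggaatttcTGGTGCTat
Igf1, chr10:87931650-87931679, plus strand: tgttgttgttttttagtacaaTGGTGCTat
Irs1, chr1:82233372-82233401, minus strand: tggtttatcatctgaagatggTGGTGCTat
The sites of Tet3, Mcl1, Dgcr2, Col6a3, Col3a1, Col1a1, Igf1 and Irs1 have the A of the 8-nt match after the word. Both Zfp36 sites and those of Dnmt3a, Kdm6b and Cecr2 do not.

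The first question was how often AGO2 peaks of 3' UTRs hold the seed word. In WT of set 1, 783 of 17851 3' UTR peaks were members (4.39%, 95% Wilson interval 4.10 to 4.70). In mir-486 KO of set 1 there were 615 of 21914 (2.81%, 2.60 to 3.03). In set 2 there were 1009 of 29853 in WT (3.38%, 3.18 to 3.59) and 1061 of 29311 in mir-486 KO (3.62%, 3.41 to 3.84). The libraries of set 1 were thus the highest and the lowest, and the mean was 3.55% ± 0.65 (SD, n = 4). These and later intervals cover counting error only. The seed word's 7 letters can be arranged in 139 other ways, and these permuted words were searched in the same peaks. On average a permuted word was held by 1.04% of the peaks, and 2 of the 139 were held as often as the seed word. Those 2 were CTGTGTG (4.72%) and TGCTGTG (3.92%), and peaks with them differed from peaks without them by −0.01 and 0.10 in median log2 fold. Shares of the permuted words ran from 0.097% to 4.72%, with a median of 0.94%. Some of these words hold a C followed by a G, such as GGTTCGT at 0.13%, and the seed word does not. They were not set apart, and their effect on the mean, and on later multiples of it, was not tested.

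The share of peaks with the seed word was higher among peaks of higher fold. In WT of set 1 the word was in 2.15% of 3' UTR peaks with a log2 fold below 0 (73 of 3390), in 4.69% of those from 1 to 2 and in 8.76% of those at 3 or more (123 of 1404, Wilson interval 7.39 to 10.4). Over the same bins the mean of the permuted words went from 0.853% to 1.23%. In mir-486 KO of set 1 the seed word went from 1.61% below 0 to 6.54% at 3 or more. In set 2 the highest share was in the bin from 2 to 3, with 6.27% in WT and 6.77% in mir-486 KO, against 1.74% and 2.03% below 0. At 3 or more it was 5.65% and 5.37% there, which overlapped the bin from 2 to 3 within the counting intervals.

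The same pattern stood when a p-value was required instead of a fold. A −log10 p of at least 3 was reached by 9.81%, 4.75%, 15.4% and 13.9% of all 3' UTR peaks, for WT and mir-486 KO of set 1 and then of set 2. Of the members it was reached by 17.1%, 10.2%, 27.6% and 25.7%, so the members' share was above the background in each library. Among the peaks that reached it, the seed word was in 7.65%, 6.05%, 6.05% and 6.70%. That was from 4.37 to 5.89 times the mean of the permuted words, which include words with a C followed by a G.

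Next, the log2 fold of the members was set against that of the other 3' UTR peaks. The median member had a log2 fold of 1.61 in WT of set 1, against 0.87 for the other peaks. In mir-486 KO of set 1 the medians were 1.12 and 0.61. In set 2 they were 1.15 and 0.57 in WT, and 1.11 and 0.56 in mir-486 KO. The members were higher in every library, by 0.59 ± 0.10 on the log2 scale (mean ± SD, n = 4). An exact sign-flip permutation test over the libraries, two-sided, gave p = 0.13, which is the smallest p that 4 libraries allow, so no call at 0.05 was possible for this or any later test over libraries. No permuted word reached this mean difference: their average was 0.07, and the highest was 0.55 for TTGGTGC, which shares 6 letters in a row with the seed word. Without the peaks that also hold the seed word, TTGGTGC stood at 0.23. Within single libraries, 2 permuted words reached the seed word's difference in WT of set 1 and 1 did in mir-486 KO of set 1. The average of the permuted words was 0.21 and 0.08 in these libraries, and 0.004 and 0.005 in WT and mir-486 KO of set 2.

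**Figure D1:**
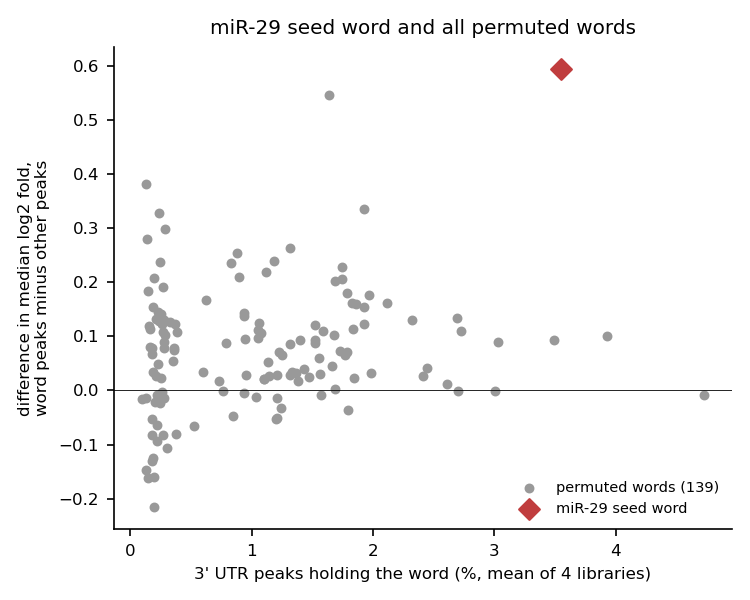
The share of 3' UTR peaks holding a word (x axis, percent, mean of 4 libraries) against the difference in median log2 fold over input between peaks with and without it (y axis), for the miR-29 seed word (diamond) and the 139 permuted words (grey points). The seed word stands at 3.55% and 0.59, above every permuted word on the y axis, while 2 permuted words lie further right.

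The spread within a library was wide. The members' interquartile range ran from 0.68 to 2.52 in WT of set 1 and from 0.28 to 2.02 in mir-486 KO of set 2. Between 9.32% and 18.4% of the members had a log2 fold below 0, against 19.4% to 33.3% of the other peaks. The members were also longer, with median lengths of 96, 88, 144 and 135 nt against 74, 69, 102 and 97 nt, and longer peaks had higher folds. With the peaks of each library divided into 5 equal classes of length, the members stood higher by 0.41 ± 0.09 (SD, n = 4). They were higher in 19 of the 20 classes, and equal in the shortest class of WT of set 1.

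Among only the peaks with a −log10 p of at least 3, the difference in median fold was 0.22 and 0.15 in WT of sets 1 and 2, and −0.08 and −0.01 in mir-486 KO. Its mean over the libraries was 0.07 (exact sign-flip permutation p = 0.5). The sign thus differed between libraries in this comparison across genes. Set against other peaks of the same gene that also reached this p, the members were higher in all 4 libraries, by 0.07 to 0.30 and by 0.15 on average (exact sign-flip permutation p = 0.13).

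A peak past both a log2 fold of 3 and a −log10 p of 3 is called enriched here. Of all listed peaks, 3.57% in WT and 0.848% in mir-486 KO of set 1 were enriched, and 1.42% and 1.23% in set 2. Of the 3' UTR peaks, 5.89%, 1.64%, 3.54% and 3.53% were enriched in the same order. Of the members, 93 of 783 were enriched in WT of set 1 (11.9%, Wilson interval 9.80 to 14.3) and 23 of 615 in mir-486 KO (3.74%, 2.50 to 5.55). In set 2 there were 61 of 1009 (6.05%, 4.74 to 7.69) and 60 of 1061 (5.66%, 4.42 to 7.21). The members' share exceeded that of the other 3' UTR peaks in all 4 libraries, by 6.26, 2.16, 2.59 and 2.20 percentage points. The mean was 3.30 ± 1.98 (SD, n = 4; exact sign-flip permutation p = 0.13), and without WT of set 1 it was 2.32. On this mean 9 of the 139 permuted words were as high as the seed word. Within single libraries 15 and 16 were as high in WT and mir-486 KO of set 1, and 11 and 16 in set 2.

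The peaks with the 8-nt match were higher than those with the 7-nt match alone. In WT of set 1 the 209 peaks with the 8-nt match had a median log2 fold of 2.04 and the 574 with 7 nt only had 1.46. In mir-486 KO of set 1 the medians were 1.61 and 0.97. In set 2 they were 1.64 and 1.02 in WT, and 1.56 and 0.96 in mir-486 KO. The step from 7 to 8 nt was 0.61 ± 0.02 (SD, n = 4) and nearly the same size in every library. The step from no word to 7 nt only was 0.45 ± 0.10, and both steps gave an exact sign-flip permutation p of 0.13. The 3801 peaks with only the 6-nt match to positions 2 to 7 stood 0.14 ± 0.14 above peaks without it, and were above them in 3 of 4 libraries. After the seed word stood an A in 24.9% of 3549 occurrences, against 20.1% for the permuted words. Of the 25 nt on each side of the word, a median of 52% to 54% were A or U for the seed word and 52% for the permuted words.

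**Figure D2:**
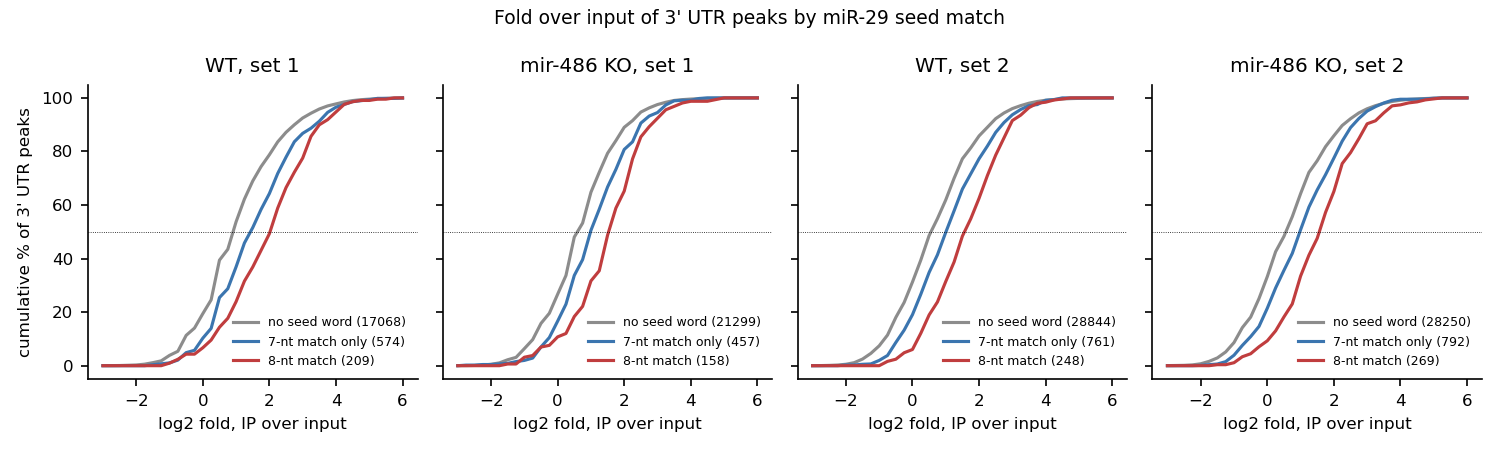
Cumulative percentage of 3' UTR peaks (y axis) at or below each log2 fold of IP over input (x axis, read every 0.25), with 1 panel per library and the number of peaks in brackets. In each library the 8-nt curve lies furthest right through its middle, crossing 50% at 1.56 to 2.04, and the curve of peaks without the word lies furthest left.

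To take out differences between genes, members were compared with the other 3' UTR peaks of the same gene. In 573 genes of WT of set 1 that had both, the median difference was 0.60, and the members were higher in 380 genes and lower in 171. In mir-486 KO of set 1 the median was 0.42 over 470 genes. In set 2 it was 0.24 over 770 genes in WT and 0.25 over 796 genes in mir-486 KO. The members thus stood higher within genes too, by 0.38 ± 0.17 (SD, n = 4; exact sign-flip permutation p = 0.13). This was less than the 0.59 across all genes. The lower quartile of the gene differences was −0.21 in WT and −0.23 in mir-486 KO of set 1, and −0.40 and −0.32 in set 2. Members were higher in 306 genes and lower in 153 in mir-486 KO of set 1. In set 2 they were higher in 465 and lower in 300 in WT, and higher in 487 and lower in 303 in mir-486 KO.

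The position of the word in the 3' UTR was then read without reference to the fold. Each 3' UTR stretch with at least 1 peak was divided into the part covered by extended peaks and the rest. In WT of set 1 the covered part held 0.368 seed words per kb and the rest 0.0760, a ratio of 4.85. The ratio was 2.58 in mir-486 KO of set 1, 2.85 in WT of set 2 and 3.20 in mir-486 KO of set 2. For the permuted words together it was 1.18 to 1.22, and none of the 139 reached the seed word's ratio in any library. In WT of set 1, 778 of the seed words in these stretches lay in the covered part and 896 outside. The counts were 603 and 1155 in mir-486 KO of set 1, 989 and 1115 in WT of set 2, and 1023 and 1083 in mir-486 KO of set 2. More seed words thus lay outside the covered part than in it in each library.

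Seed words lay within 20 nt of the peak midpoint more often than permuted words did. In set 1 the shares were 53.7% against 36.3% in WT and 46.2% against 37.8% in mir-486 KO. In set 2 they were 36.3% against 28.4% and 34.8% against 29.3%, so most seed words there lay further out. Of the words in WT of set 1, 83.6% lay wholly within the listed peak, against 65.1% of the permuted words. The shares were 73.9% against 62.7% in mir-486 KO of set 1, 83.6% against 72.3% in WT of set 2 and 80.8% against 71.1% in mir-486 KO of set 2. The median offset from the midpoint was between −2 and 1.5 nt, and 47.7% to 51.5% lay upstream of it. The searched window is symmetric about the midpoint, so these 2 values cannot show closeness to it. In the central 10 nt there were 7.06 seed words per 1000 peaks in WT of set 1, 7.85 times the permuted mean. In the other 3 libraries there were 3.00 to 3.38, or 3.41 to 4.18 times. In mir-486 KO of set 2 the multiple was 3.41 there but 3.79 in the bin 70 nt upstream, so it was not highest at the middle. The permuted mean here too includes words with a C followed by a G. WT of set 1, which has the shortest list, had the sharpest concentration.

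**Figure D3:**
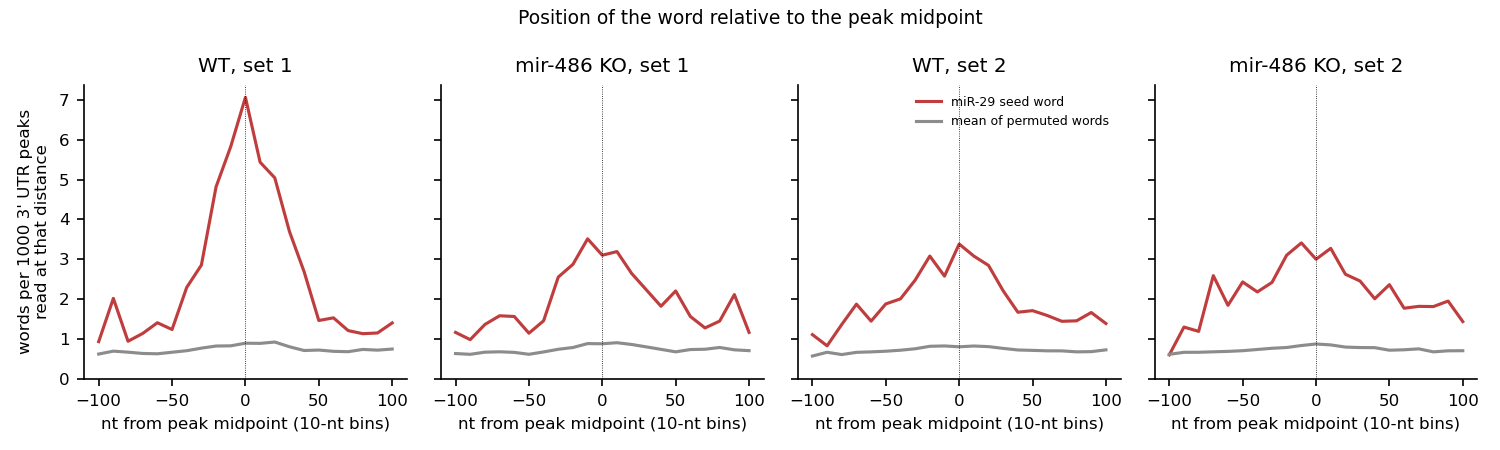
Words per 1000 3' UTR peaks read at each distance (y axis) against the distance of the word from the peak midpoint in 10-nt bins (x axis, negative is upstream), with 1 panel per library. The seed word (red) is highest near the midpoint, at 7.06 in the central bin of WT of set 1 and about 3 in the others, while the mean of the permuted words (grey) stays below 1.

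For comparison, the seed words of 4 other microRNA families known in muscle were read in the same way. Peaks with the word of miR-1 and miR-206 stood 1.33 above other 3' UTR peaks in median log2 fold, and those of miR-133 stood 1.09 above. The words of let-7 and miR-30 gave 0.60 and 0.56, against 0.59 for miR-29. In these means miR-29 peaks were thus beside those of let-7 and miR-30. They were below those of the muscle microRNAs in each of the 4 libraries. By library the let-7 difference ran from 0.19 in mir-486 KO of set 1 to 0.81 in WT of set 1. That of miR-30 ran from 0.42 to 0.67 and that of miR-29 from 0.51 to 0.74. By the difference in share enriched, miR-29 was the lowest of these families, at a mean of 3.30 percentage points. The others had 3.61 for miR-30, 4.19 for let-7, 10.3 for miR-133 and 15.0 for miR-1 and miR-206. The 3.37% of members that also held the miR-30 word compare with 3.45% of other peaks. For the other words the members' share was lower. It was 2.10% against 3.48% for miR-1 and miR-206, 1.96% against 2.25% for miR-133 and 1.70% against 2.25% for let-7.

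The sites differed in how often they were found. Of the 1415 sites, 416 were in 1 list, 342 in 2, 276 in 3 and 381 in all 4. The median of a site's mean log2 fold was 0.65, 0.85, 1.30 and 1.74 for these classes, and 16.3%, 18.1%, 23.9% and 31.2% of their sites had the 8-nt match. Sites found in more lists were thus higher and more often followed by A. Over the 381 sites in all lists, Spearman's correlation of the log2 folds across sites was 0.80 between both libraries of set 2, 0.50 between both libraries of set 1 and 0.53 to 0.57 between sets, and sites are not replicates. The peak holding a site was enriched in at least 1 list at 164 sites, in at least 2 at 45, in at least 3 at 17 and in all 4 at 3, which are those of Tet3, Kdm6b and Dgcr2. By library, 5.89%, 1.64%, 3.54% and 3.53% of all 3' UTR peaks were enriched, for WT and mir-486 KO of set 1 and then of set 2. Counts across lists were not made for other peaks or permuted words, so no excess can be read from those of the sites. Where several peaks of a list held a site, the value is that of the peak whose midpoint was nearest the word.

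The most enriched sites were in genes of varied function. At the Zfp36 site whose word starts at 28377054, the log2 folds were 5.21 in WT and 2.29 in mir-486 KO of set 1, and 4.29 and 4.81 in set 2. Zfp36 encodes tristetraprolin, which binds AU-rich messenger RNAs and speeds their decay, and its other site stood at 5.99, 3.26, 3.90 and 2.71 in the same order of libraries. WT of set 1 was the highest library at both, and the order of the genotypes in set 2 was opposite between them. Nrep, on chromosome 18, had 5.03, 2.98, 3.38 and 5.09. Cecr2, a bromodomain protein of a chromatin remodeling complex, had 3.52, 2.80, 3.60 and 5.21. The values of Kdm6b, a demethylase of histone H3, were close together in all libraries, at 3.68, 3.50, 3.83 and 3.93. Those of Dgcr2 were closer still, at 3.27, 3.29, 3.24 and 3.56.

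Other sites with high values lay in genes of redox defence, signaling and survival. Mcl1, which protects cells from apoptosis, had log2 folds of 4.22, 3.25, 2.73 and 3.46. Srxn1, sulfiredoxin, had 3.46, 1.91, 4.34 and 4.53. Pdgfa, a growth factor ligand, had 4.26, 3.21, 3.94 and 2.46 and was lower in mir-486 KO in both sets. The same held for 119 of the 381 sites in all lists, while 46 were higher in mir-486 KO in both sets. Of sites listed in both genotypes, 308 of 438 were lower in mir-486 KO in set 1 and 389 of 791 in set 2. Of the other 3' UTR peaks of set 1 with an overlapping peak, 65.0% were lower as well. Counts over both sets were not made for other peaks, so nothing particular to these sites is read from them. Eda2r, a receptor of the TNF receptor family, had 5.04 and 4.08 in set 1 and 2.62 and 2.24 in set 2. The clock genes Per3 and Per1 had means of 3.21 ± 0.36 and 3.17 ± 0.56 (SD, n = 4), and both were highest in WT of set 1. Klhl28, Psma3, Taf7, Dennd6a, Tsc22d3 and Uhrf1bp1l were listed in all 4 libraries with means from 3.19 to 3.71, and Ccnj and Bach2 were listed in 3 with 3.48 and 3.53.

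**Figure D4:**
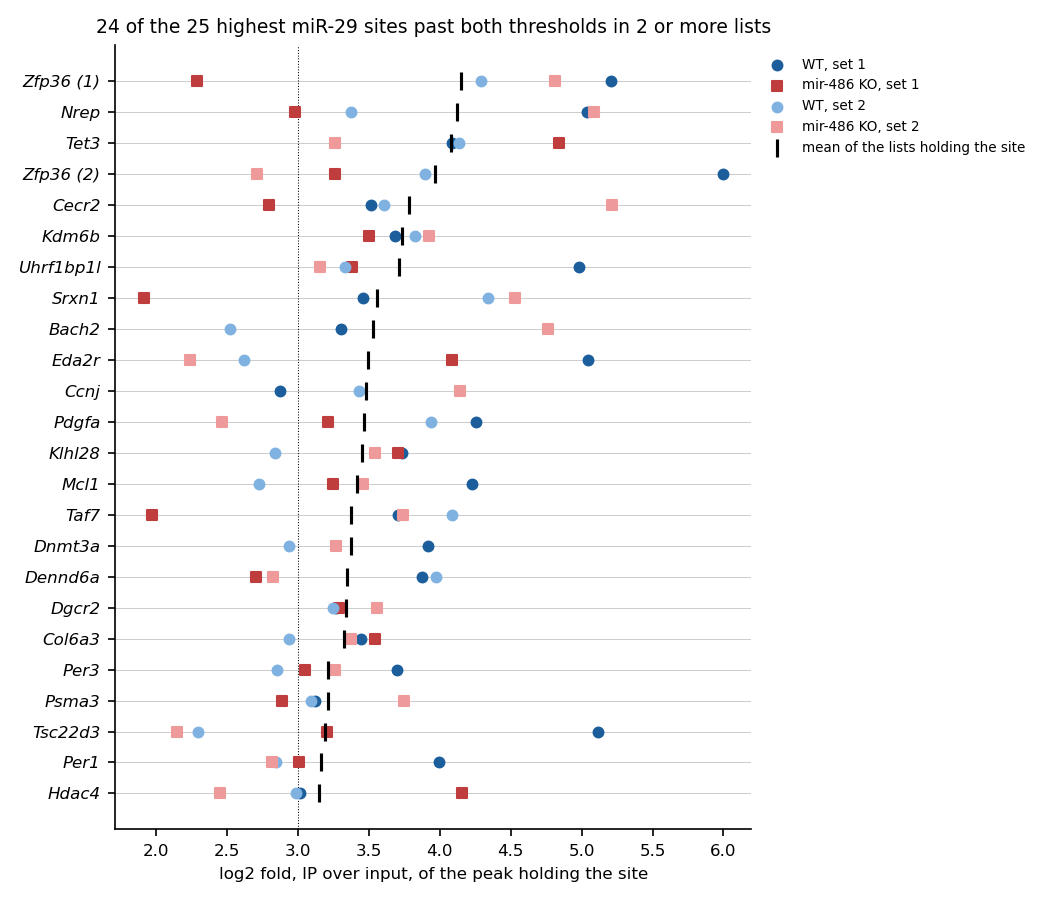
Log2 fold of IP over input (x axis) of the peak holding each of 24 of the 25 highest sites among the 45 enriched in at least 2 lists, by library (circles WT, squares mir-486 KO, dark set 1, light set 2), with the mean as a black bar and the threshold of 3 dotted. Kdm6b and Dgcr2 have the closest values, Zfp36 and Tsc22d3 are among those with the widest spread, and Bach2, Ccnj and Dnmt3a have no point for mir-486 KO of set 1.

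Collagen chains were the largest group of known targets. Of 20 collagen genes considered, 17 had the seed word in an annotated 3' UTR, 15 had a member and 9 had a member in all 4 lists, with 28 sites in all. The median of their members was 2.36 and 1.51 in WT and mir-486 KO of set 1, and 1.67 and 1.93 in set 2, in each library above the median of all members. The other 3' UTR peaks of these genes were also high, at 1.69, 1.12, 1.44 and 1.70. Of their 74 members 10 were enriched (13.5%), and of their 150 other peaks 14 (9.33%).

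Col6a3, a chain of the microfibrillar collagen VI, had the highest collagen site, with log2 folds of 3.44 in WT and 3.54 in mir-486 KO of set 1 and 2.94 and 3.38 in set 2. The 2 sites of Col4a2, a basement membrane chain, had means of 2.86 ± 0.30 (SD, n = 4) and 2.68 ± 0.88 (n = 3). Col3a1, a fibrillar collagen of connective tissue, had 2.36, 2.45, 2.85 and 3.11, and Col1a1, a chain of fibrillar collagen I, had 1.80, 3.17, 2.39 and 2.11. At Col3a1 the libraries of set 2 were above those of set 1, and at Col1a1 the genotypes were in opposite order in the 2 sets. Over the 4 lists together, the members of Col1a1 had a median of 2.11, below the 2.54 of its other 3' UTR peaks. Enriched were 1 of its members and 7 of those other peaks. At Col3a1 the members had 2.54 and the other peaks 1.66, with 1 and 3 enriched. Col6a2 stood at 4.30 in WT of set 1 and between 0.88 and 1.81 in the other libraries, so its mean of 2.16 rests on 1 library. Col7a1 was near 0, with a mean of −0.09 in the 3 lists that hold its higher site. Col1a2, Col4a1 and Col6a1 have no copy of the 7-nt word in their annotated 3' UTRs and had 3' UTR peaks but no member.

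Of 20 other matrix genes, 10 had the word in an annotated 3' UTR. Members were listed for 8 genes, one of which, Lamc1, has no copy of the word within its annotated 3' UTR. The members' medians were 1.68, 1.45, 1.97 and 2.57, against 1.57, 1.51, 1.28 and 1.30 for the other peaks, and were lower than these in mir-486 KO of set 1. Fbn1, which builds elastic microfibrils, had the highest mean in this group at 2.79 ± 1.01, with values of 1.68, 4.12, 2.51 and 2.86. Itgb1, an integrin chain that binds the matrix, had 3.46 in WT of set 1 and 1.19 to 2.44 in the others. Lox, which cross-links collagen, had 3 sites, and the one in all 4 lists had a mean of 1.90. Enriched peaks were 3 of 34 members (8.82%) and 21 of 250 other peaks (8.40%) of these genes.

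The genes of DNA methylation held the most sites per gene. Tet3, a dioxygenase that oxidises methylated cytosine, had 8 sites and Tet2 had 5, the 2 highest numbers of all genes. In all, 140 genes had 2 or more sites and 25 had 3 or more. The highest Tet3 site had log2 folds of 4.08 and 4.84 in WT and mir-486 KO of set 1 and 4.14 and 3.26 in set 2. The remaining 7 had means from 2.09 to 2.98, and some of them share a peak. Dnmt3a, a de novo DNA methyltransferase, had 1 site at 3.92, 2.93 and 3.27 in the 3 lists that hold it, and a second at 4.27, 1.46, 3.42 and 2.84. The medians of this group's members were 2.58, 2.55, 2.83 and 2.79, against 2.68, 2.02, 2.62 and 2.19 for the other peaks, so that members were lower in WT of set 1 and higher in the other libraries. Of the 44 members of this group 14 were enriched (31.8%), against 23 of 119 other peaks (19.3%) of the same genes. Tet1 had 3 sites with means of 1.24 to 1.70, and none was enriched.

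In insulin and IGF signaling, growth and atrophy, 8 of 15 genes had a member, and enriched peaks were 7 of 38 members (18.4%) against 10 of 372 other peaks (2.69%). The members' medians were 2.23, 2.02, 2.12 and 1.89 and those of the other peaks 1.09, 1.12, 0.94 and 0.82, so in this group members and other peaks were far apart in each library. Igf1, the growth factor that drives muscle growth, had 2 sites, both with the 8-nt match. The first had log2 folds of 2.04 and 2.50 in set 1 and 4.40 and 3.63 in set 2, and the second 1.68, 2.16, 3.68 and 2.95. Both were higher in set 2 in both genotypes. Irs1, the adaptor of the insulin and IGF-1 receptors, had 2.63, 3.17, 2.65 and 2.21. Trim63, the ubiquitin ligase MuRF1 of muscle atrophy, stood at 4.04 in WT of set 1 and at 2.02 to 2.12 in the other libraries. Fbxo32, the other atrophy ligase, had a mean of −0.02 over 2 lists.

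Of 13 genes of chromatin, cell cycle and survival, 6 had a member, with 6 of 31 members (19.4%) and 30 of 176 other peaks (17.0%) enriched. Their medians were 2.59, 2.13, 1.75 and 1.74 for members and 2.30, 2.01, 1.64 and 2.12 for other peaks, with members lower in mir-486 KO of set 2. Besides Mcl1, the histone deacetylase gene Hdac4 had 3.02, 4.16, 2.99 and 2.45. Yy1, a transcription factor, was listed in all 4 libraries with a mean of −0.62, below the median of all members in each list. Of 7 metabolic genes, 4 had a member. Lpl, lipoprotein lipase, had 3.26 in WT of set 1 and 1.22 to 1.74 elsewhere, and the transporter gene Slc16a1 had 3.52 there and 0.11 and 0.05 in set 2. Ppargc1a, a coactivator of mitochondrial biogenesis, had 1 site, with 0.44 in 1 list. At Col6a2, Itgb1, Trim63, Lpl and Slc16a1, WT of set 1 alone was above 3.

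Finally, WT and mir-486 KO were compared within each set. The median log2 fold of the members was lower in mir-486 KO by 0.49 in set 1 and by 0.03 in set 2, a mean difference of −0.26. An exact two-sided permutation test of 2 against 2 libraries gave p = 0.33, the smallest it can give. The other 3' UTR peaks were lower by 0.27 in set 1 and by 0.01 in set 2, so the part of the difference that members did not share with other peaks was −0.22 and −0.02. Without WT of set 1 the mean difference of the members was −0.03. The share of 3' UTR peaks with the word differed by −1.58 percentage points between mir-486 KO and WT in set 1 and by 0.24 in set 2.

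Where a member of the WT list overlapped a peak of the mir-486 KO list, the 2 folds could be set side by side. In set 1, 494 of 783 members (63.1%) had such a peak, with a median difference of −0.68, and 71.1% were lower in mir-486 KO. The other 3' UTR peaks had −0.47 and 65.0%. In set 2, 845 of 1009 members (83.7%) had one, with a median difference of −0.01, and 50.3% were lower, against −0.02 and 51.2% for the other peaks. By site, 308 of 438 in set 1 and 389 of 791 in set 2 were higher in WT. The genotype difference of set 1 was thus not seen in set 2, for members or for other peaks. Within set 1, genotype and library cannot be told apart.

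**Figure D5:**
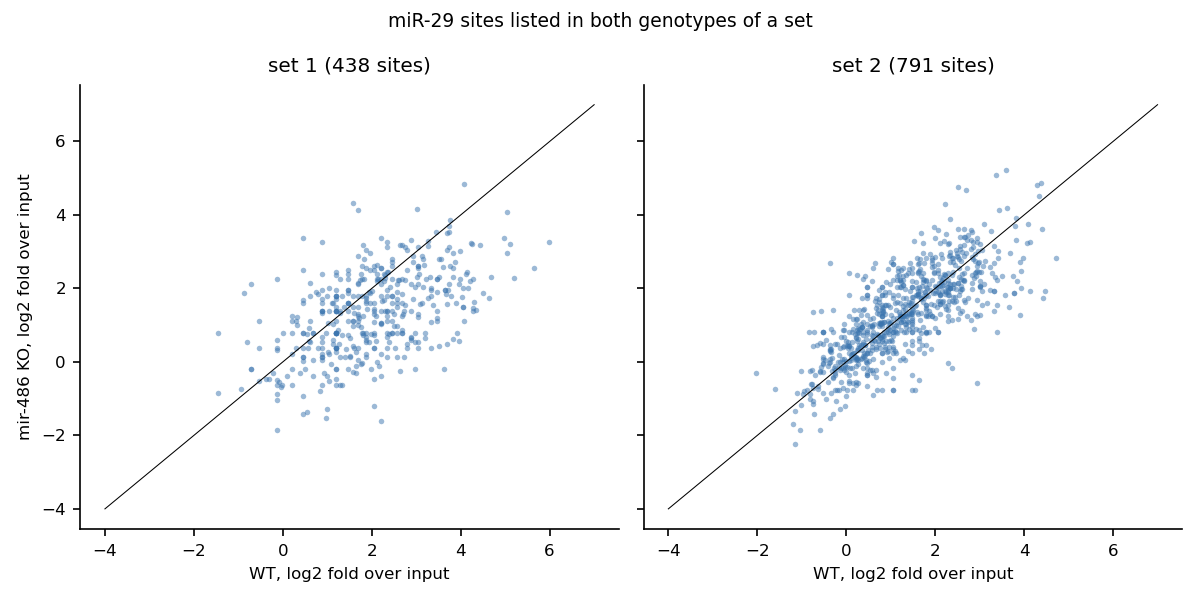
Log2 fold of IP over input of each site in WT (x axis) and mir-486 KO (y axis) for sites listed in both libraries of a set, with the line of equal values. In set 1 (438 sites) most points lie below the line, and in set 2 (791 sites) they lie on both sides of it.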

How the data were processed

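Per the methods and labels, adapters were removed with cutadapt, STAR aligned the reads, and CLIPper peaks of each IP library were normalized to input by the authors. The deposited values of a peak are its log2 fold of IP over input and, in −log10 form, a p-value capped at 400. No threshold or read count is given, and replicates were not pooled. A further 4 deposited lists hold the authors' own comparisons of WT and mir-486 KO and were not used.

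Regions came from GENCODE M21 and sequence from the RefSeq GRCm38 genome, and the lists' 21 chromosomes fit its lengths. Labels name a later GENCODE release. The seed word was derived from RefSeq's mature sequence and searched together with all 139 permutations of its letters. Members and gene lists were chosen with earlier results of these data known. Differences between members and other peaks were taken within each library and tested by exact sign-flip permutation over 4 libraries (smallest p 0.13), and genotypes by exact permutation (smallest p 0.33). Peaks were not treated as replicates. Named sites are the 25 with the highest mean log2 fold among sites past both thresholds in at least 2 lists, the 10 highest in all 4 lists, and those of the gene lists. Values of 2 named genes are not reported here. Counting used Python 3.11.15, pandas 2.3.3, scipy 1.17.1, pysam 0.24.0 and samtools 1.23.1, and was tested on simulated data. Alternatives were other extensions, seed lengths, region rules, thresholds and leaving out each library.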

Additional observations from a re-analysis of the deposited data

Results flagged for a closer look

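The share of 3' UTR peaks with the miR-29 seed word moved in opposite directions between genotypes in the 2 sets. It was lower in mir-486 KO than in WT in set 1, with a difference of −1.58 percentage points, and higher in set 2, with a difference of 0.24 percentage points. Each set has 1 library per genotype, so the difference between the sets was not tested.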

How the results depend on the processing

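The 4 tested differences (median fold, share enriched, within-gene fold, and mir-486 KO minus WT) had means of unchanged direction under the alternatives run, and none could pass a threshold at this number of libraries. Among peaks with a −log10 p of at least 3, however, the difference in median fold was below 0 in both mir-486 KO libraries, so its mean there gives no direction. The share of 3' UTR peaks with the word was 3.55%, and it was 2.89% with no extension, 7.36% for the 6-nt word, 0.910% for the 8-nt word and 6.61% among peaks with a −log10 p of at least 3. Its ratio to the permuted mean was 3.43, and it was 2.32 for the 6-nt word, 4.38 for the 8-nt word and 4.93 among peaks with that p. The permuted mean includes words with a C followed by a G, which the seed word lacks. Words inside the listed peak made up 80.5%, and 68.4% with 50 nt on each side, since a wider window adds outer sequence. The cause of the other shifts was not tested. The difference in median fold was 0.34 for the 6-nt word, 1.06 for the 8-nt word and 0.07 among peaks with a −log10 p of at least 3. The difference in share enriched, 3.30 percentage points, was 9.47 at a log2 threshold of 1, 8.04 at 2 and 6.51 for the 8-nt word. The within-gene difference, 0.38, was 0.15 among peaks with a −log10 p of at least 3, 0.24 for the 6-nt word and 0.58 for the 8-nt word. Leaving out 1 library at a time, the difference in median fold ranged from 0.55 to 0.62. The mean difference between genotypes ranged from −0.49 to −0.03 in the same way, −0.03 being without WT of set 1. Taking the set as a replicate block left it at −0.26, with an exact p of 0.5 that is the smallest 2 sets allow. The block, the mean in place of the median, classes of peak length and the comparison with other peaks of the same library were chosen after seeing the data. Depth per library is unknown, so a site absent from a list may lie below its detection.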
